A study of Mus musculus with 8 samples.

Results

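The genes described here are 39 cell cycle genes of the mouse: cyclins, cyclin-dependent kinases (CDKs), CDK inhibitors, E2F factors, pocket proteins, CDC25 phosphatases and genes of the MCM helicase that opens DNA for replication. They were chosen by name among the non-control spots of an Agilent mouse expression array. The array carried 55 probes for them, out of 55681 probes in all. The scanner software marks spots that are well above background, and a probe was kept where some line had that mark on each of its arrays. Where a gene had several kept probes, the probe with the highest mean stood for its gene. By that rule 35 of the 39 genes were tested, among 19975 gene names. All 35 were well above background on all 8 arrays, so none of them entered through 1 group alone. The other 4 (Ccnd1, Ccnd2, Ccne2 and Cdkn1c) were not well above background on any array.

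Total RNA came from A20, a mouse B lymphoma cell line. The IgE lines were 2 stable A20 transfectants that carry IgE, clone 18 and clone 41, each a single clone. The controls were a stable A20 transfectant that carries IgM, called membrane IgM in the series' design, and untransfected A20 cells. The labels do not say whether the IgM line is 1 clone. Per the labels' protocols, all lines were grown alike, at 500000 cells/mL in RPMI1640 with 50 µM beta-mercaptoethanol and 10% fetal serum. Each line was measured on 2 one-colour arrays, replicates 1 and 2, from 1 µg of RNA each. No label says whether replicates were grown as separate cultures. The p-values therefore take in only the spread among these arrays, which may be technical.

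In mammalian cells, D-type cyclins with CDK4 or CDK6, and later cyclin E with CDK2, phosphorylate the pocket proteins and so free the E2F factors, which drive the genes of DNA replication. The INK4 inhibitors bind CDK4 and CDK6, whereas the CIP/KIP inhibitors bind several cyclin-CDK complexes. Speedy A, the product of Spdya, is not a cyclin by sequence but binds and activates CDK2 and is best known from the testis.

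Facts of the arrays as a whole were these. The share of spots well above background was 49.7% to 53.1% on the IgE arrays and 51.1% to 58.9% on the control arrays, and the 75th percentile of the processed intensity ran from 414 to 461 on the IgE arrays and from 517 to 586 on the control arrays. Levels below are log2 processed intensity minus that percentile, so that 0 is the array's own 75th percentile. A difference is IgE lines minus control lines, and 1 on this scale is 2-fold. The 2 untransfected arrays were the least alike: the SD of their log2 difference was 0.647 over 17376 genes, against 0.323 in clone 18, 0.37 in clone 41 and 0.356 in IgM cells. All arrays lay on 1 slide, with a line to each column of the slide, so the effect of a column cannot be told apart from that of its line. Each slide row held 1 replicate number of every line, so that the replicate number as a block is also the slide row. All 8 B cell markers on the marker list were well above background on all arrays, among them Cd79a and Pax5. Between the IgE and control lines Emr1 was lower (limma adjusted p = 0.000585) and Hbb-b1 was higher (adjusted p = 0.00639). Cd3g was well above background on the 2 IgM arrays alone (-1.225 and -0.457). It was kept through that line only, so no p-value is given for it. The part of such markers in the results was not tested. Hbb-b1 read 4.06 and 3.98 in clone 18, 2.06 and 1.67 in clone 41, -0.998 and -0.747 in IgM cells, and 3.65 and 2.35 in untransfected cells, so that the IgM arrays alone were low and both untransfected arrays lay above both clone 41 arrays. The summed level of a list (log2 of the sum) was 2.09 to 2.58 on IgE arrays and 2.07 to 2.32 on control arrays for 5 T cell markers, 5.46 to 6.02 and 5.58 to 5.96 for 6 myeloid markers, and 1.79 to 4.09 and -0.44 to 3.69 for 6 stromal and erythroid markers. Of the T cell markers Cd8a was not well above background on any array, and nor were Lyz2 and Cd14 among the myeloid or Col1a1 among the last. In bulk RNA, fewer cells of a type and less RNA per cell cannot be told apart.

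Of the 35 genes tested, Spdya, Cdkn2c and Cdkn2b were called between the IgE and control lines, by the rule given below. Cdkn1a had a larger difference (-2.07) than Cdkn2c or Cdkn2b but missed the threshold (limma adjusted p = 0.0677). No cyclin, kinase, E2F or MCM gene was called. Spdya rose 14.4-fold, Cdkn2c 3.44-fold and Cdkn2b 2.13-fold between the IgE and control lines. Cdkn2b was low in IgM cells, and neither IgE clone passed the test for it against untransfected cells. A gene was called when its adjusted p was under 0.05 (limma, Benjamini-Hochberg over all genes tested) and its change was at least 2-fold. Of the 35 genes 3 were called higher and 0 lower. Over all genes 9.00% were called, 3.44% higher and 5.56% lower, and an unadjusted p under 0.05 was reached by 11 of the 35, against 6944 of all 19975 genes. The share called among the 35 was thus near that over all genes, and is not read as a result about the set. In a role of few genes, 0 calls cannot be told apart from that share. The median difference was 0.09 over the 35 genes and 0.05 over all genes tested, and 28 of the 35 lay within 0.5 of 0.

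**Figure D1:**
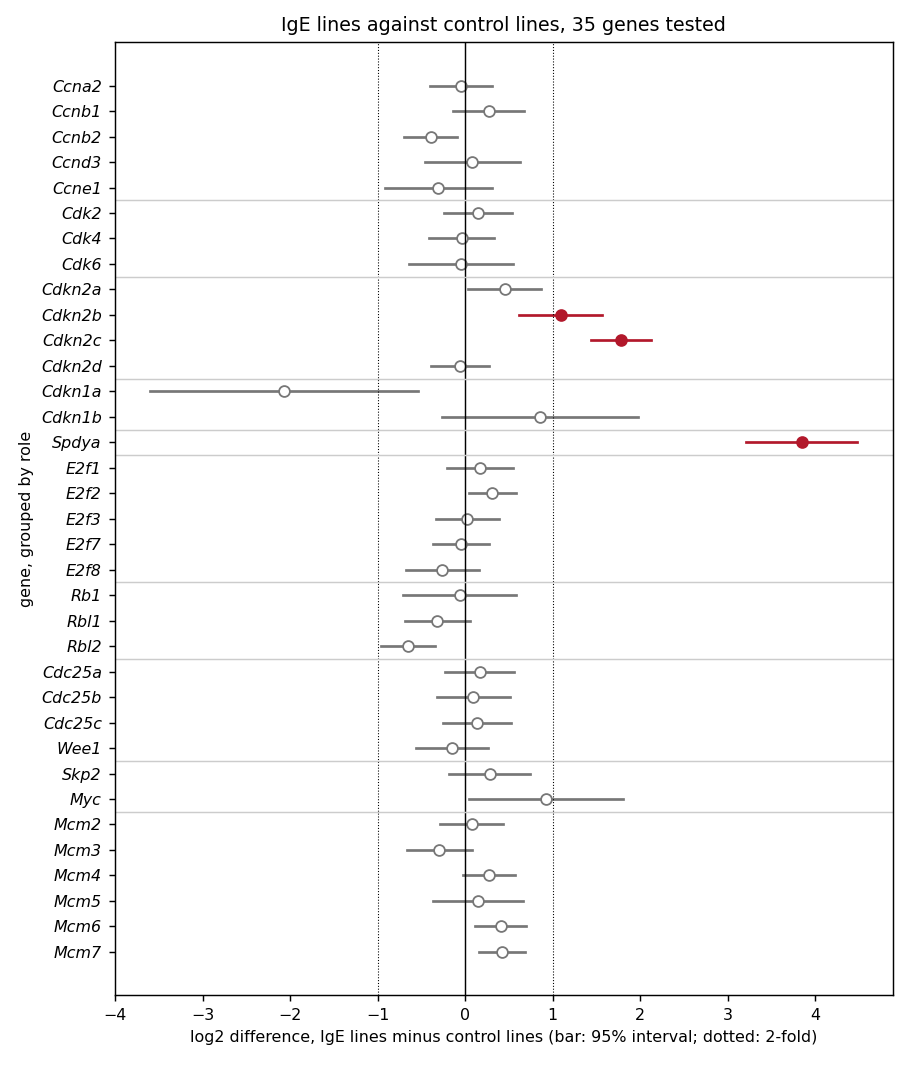
Difference between IgE and control lines for the 35 genes tested, grouped by role. The x axis is the log2 difference (IgE lines minus control lines, 4 arrays a side), bars are 95% intervals of the limma fit, dotted lines mark 2-fold and filled red points are called genes. Spdya (3.84), Cdkn2c (1.78) and Cdkn2b (1.09) are the red points, and Cdkn1a (-2.07) has the widest bar.

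RefSeq windows of assembly GRCm38.p6 that end at a gene's start were found by symbol for 29 of the 39 genes, 37 windows in all, and the 250 bases before the start were searched on both strands. The E2F letters searched were TTTCCCGC, TTTCGCGC, TTTGCCGC and TTTGGCGC. They were in 9 of the 37 windows (24.3%), against 611 of all 32851 windows (1.86%). CCAAT was in 21 windows (56.8%), against 33.8% of all windows, and TTTGAA, the letters of the CHR element of mitotic genes, in 8 (21.6%), against 16% of all. A match is a description of letters and not a site. The windows of the 3 called genes are printed below with that of Mcm5, a helicase gene that holds the E2F letters, so that they can be set side by side. Each runs 5′ to 3′ on the gene's strand, with matched letters in capitals.
Spdya chr17:71551811-71552060 (plus strand): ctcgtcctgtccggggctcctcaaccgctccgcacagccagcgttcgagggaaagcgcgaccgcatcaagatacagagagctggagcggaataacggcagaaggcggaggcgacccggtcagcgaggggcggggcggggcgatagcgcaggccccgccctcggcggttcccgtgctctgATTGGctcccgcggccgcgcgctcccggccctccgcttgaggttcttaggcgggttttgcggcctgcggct
Cdkn2c chr4:109665373-109665622 (minus strand): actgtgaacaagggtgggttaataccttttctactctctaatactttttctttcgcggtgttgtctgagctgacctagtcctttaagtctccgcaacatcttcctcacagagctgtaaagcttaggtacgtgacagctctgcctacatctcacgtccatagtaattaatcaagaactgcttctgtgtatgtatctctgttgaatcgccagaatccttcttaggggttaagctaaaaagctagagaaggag
Cdkn2c chr4:109666757-109667006 (minus strand): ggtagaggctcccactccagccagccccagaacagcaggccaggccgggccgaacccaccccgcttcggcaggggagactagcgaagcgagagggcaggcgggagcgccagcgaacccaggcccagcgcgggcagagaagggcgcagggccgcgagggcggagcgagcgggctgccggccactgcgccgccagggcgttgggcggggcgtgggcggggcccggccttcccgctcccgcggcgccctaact
Cdkn2b chr4:89311033-89311282 (minus strand): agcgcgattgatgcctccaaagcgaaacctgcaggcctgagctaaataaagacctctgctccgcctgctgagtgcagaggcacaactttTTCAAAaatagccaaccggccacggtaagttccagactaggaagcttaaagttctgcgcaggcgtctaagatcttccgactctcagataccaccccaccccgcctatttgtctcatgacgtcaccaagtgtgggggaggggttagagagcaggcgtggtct
Mcm5 chr8:75109259-75109508 (plus strand): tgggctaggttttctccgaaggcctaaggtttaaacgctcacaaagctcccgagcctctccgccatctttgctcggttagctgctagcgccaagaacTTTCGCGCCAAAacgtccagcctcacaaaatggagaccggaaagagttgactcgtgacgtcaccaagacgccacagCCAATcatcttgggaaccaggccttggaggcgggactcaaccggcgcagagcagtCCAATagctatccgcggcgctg
The windows of Spdya, Cdkn2c and Cdkn2b hold none of the E2F letters. The capitals in the Spdya window are CCAAT read on the other strand, and those in the Cdkn2b window are TTTGAA read on the other strand. Neither of the Cdkn2c windows holds any of the letters searched. In the Mcm5 window the long run of capitals is a pair of overlapping E2F matches, 1 on each strand, and the other capitals are CCAAT.

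Spdya, the CDK2 activator, had the largest difference among the 35 genes tested. Its probe at mm9 chr17:71938054-71938113 read 1.46 and 1.46 in clone 18, 0.92 and 1.87 in clone 41, -1.94 and -1.84 in IgM cells, and -3.36 and -2.52 in untransfected cells. In processed intensity that was 1186, 1191, 871 and 1517 units on the IgE arrays, against 153 and 145 units in IgM cells and 55.8 and 90.0 units in untransfected cells. The 4 IgE arrays lay above all 4 control arrays with no overlap. The difference was 3.84 ± 0.27 (SE), or 14.4-fold (limma adjusted p = 0.000248). It was called in each of the 4 comparisons of a clone with a control: 4.40 and 4.34 for clones 18 and 41 over untransfected cells (adjusted p = 0.00109 and 0.00143), and 3.35 and 3.29 over IgM cells (adjusted p = 0.00285 and 0.00373). These comparisons share arrays. Clone 41 differed from clone 18 by -0.06 ± 0.38, with a 95% interval of -0.97 to 0.84.

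A second Spdya probe, at chr17:71927913-71927972, read -0.59 and -0.63 in clone 18 and -0.82 and -0.72 in clone 41. It was not well above background on any control array, where it read -5.09 and -4.76 in IgM cells and -6.50 and -6.28 in untransfected cells. Its fold is therefore a bound. For such a bound the brighter mean was set against a floor on each dim array, namely the lowest signal that any probe well above background had there, or the probe's own signal where that was higher. The probe was at least 19.4-fold higher in the IgE lines than in the control lines. It was kept through the IgE arrays alone, where it is high, so no p-value is given for it. The p-values of second probes of other genes below are from a limma fit of all 29144 kept probes. Clones 18 and 41 were at least 23.0-fold and 20.5-fold above untransfected cells, and at least 18.4-fold and 16.4-fold above IgM cells. Both probes placed every IgE array above every control array, though the second was kept only because of the IgE arrays.

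Cdkn2c encodes p18-INK4c, an inhibitor of CDK4 and CDK6 known for its part in the cell cycle exit of B cells that become plasma cells. Its probe (mm9 chr4:109333508-109333567) read 2.53 and 2.69 in clone 18, 2.48 and 2.06 in clone 41, 1.31 and 1.26 in IgM cells, and 0.18 and -0.12 in untransfected cells. The array carried no other probe for Cdkn2c, so none could be set beside it. The lines fell into steps, with both clones highest, IgM cells between and untransfected cells lowest, and no array of a lower step reached a higher one. The difference between IgE and control lines was 1.78 ± 0.15, or 3.44-fold (limma adjusted p = 0.000503). Over untransfected cells, clone 18 differed by 2.58 and clone 41 by 2.24 (adjusted p = 0.000823 and 0.00174). Over IgM cells clone 18 differed by 1.32 (adjusted p = 0.00986), a call that was lost without clone 18 replicate 1 (adjusted p = 0.0588) or 2 (0.0743) and without IgM replicate 1 (0.0579) or 2 (0.0588). Clone 41 differed from IgM cells by 0.99 (adjusted p = 0.032), just short of 2-fold. The clones themselves differed by -0.34 ± 0.21 (clone 41 minus clone 18), with an interval of -0.83 to 0.15.

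Cdkn2b encodes p15-INK4b, another inhibitor of CDK4 and CDK6, next to Cdkn2a on chromosome 4. Its probe (mm9 chr4:88952276-88952335) read 1.36 and 1.5 in clone 18, 1.83 and 1.19 in clone 41, -0.06 and -0.46 in IgM cells, and 1.23 and 0.80 in untransfected cells. The IgM arrays were the low ones, and clone 41 replicate 2 (1.19) lay below untransfected replicate 1 (1.23), so IgE and control arrays overlapped. The difference between IgE and control lines was 1.09 ± 0.20, or 2.13-fold (limma adjusted p = 0.0125). Clone 18 exceeded IgM cells by 1.69 (adjusted p = 0.0127) and clone 41 did so by 1.77 (adjusted p = 0.0125). The clone 18 call was lost without clone 18 replicate 1 (adjusted p = 0.0779) or 2 (0.0879) or IgM replicate 2 (0.0721), and the clone 41 call without clone 41 replicate 1 (0.0707) or IgM replicate 2 (0.0693). Over untransfected cells it was 0.42 and 0.49 in clones 18 and 41 (adjusted p = 0.384 and 0.35), which passed no test. A second probe of the gene differed by 0.97 between IgE and control lines (adjusted p = 0.066). The call between IgE and control lines ended without clone 18 replicate 2 (adjusted p = 0.0559) and with line as a random block (adjusted p = 0.0807). The difference also fell below 2-fold without clone 41 replicate 1 (0.93), IgM replicate 2 (0.99) or untransfected replicate 2 (0.98).

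**Figure D2:**
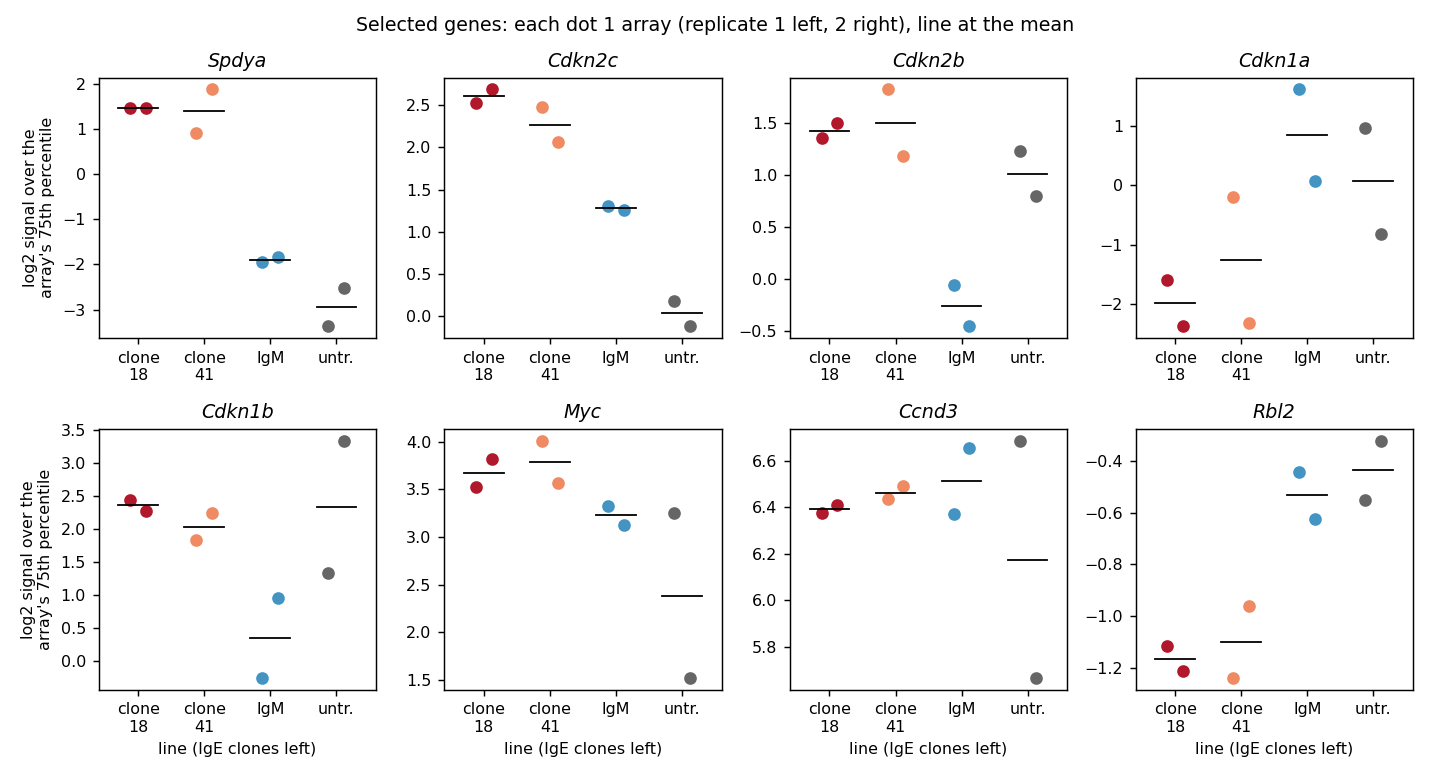
Level of 8 genes on every array. The y axis is log2 processed intensity minus the array's 75th percentile, each dot is 1 array (replicate 1 left, replicate 2 right), lines mark the mean of the 2 arrays, and y axes differ between panels. Spdya and Cdkn2c place all 4 IgE arrays above all 4 control arrays, Rbl2 places them below, and Cdkn2b is low in IgM cells alone (-0.06 and -0.46).

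The other two INK4 genes, Cdkn2a and Cdkn2d, differed by 0.45 and -0.06 between IgE and control lines and were not called. Cdkn2a encodes both p16-INK4a and p19-ARF, and the files do not say which transcript its probes read.

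Of the CIP/KIP genes, Cdkn1a, which encodes the p53 target p21, had the largest difference and the largest spread. Its probe, printed in 10 spots an array, read -1.59 and -2.36 in clone 18, -0.19 and -2.31 in clone 41, 1.61 and 0.07 in IgM cells, and 0.96 and -0.82 in untransfected cells. Replicate 1 was higher than replicate 2 in all 4 lines, and clone 41 replicate 1 (-0.19) lay above untransfected replicate 2 (-0.82). The difference between IgE and control lines was -2.07 ± 0.64, a 4.20-fold difference that missed the threshold (limma adjusted p = 0.0677). Within replicate 1 it was -2.18 and within replicate 2 it was -1.96. It was called lower under normexp background correction (-1.67, adjusted p = 0.0486), under trend and robust priors (adjusted p = 0.0473), with the replicate number as a block (adjusted p = 0.00427), under median scaling (-1.89) and without untransfected replicate 2 (-2.52, adjusted p = 0.0441). A second Cdkn1a probe, not well above background on replicate 2 of either clone, differed by -2.22 ± 0.87 (adjusted p = 0.128).

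Cdkn1b, the gene of the CDK inhibitor p27, read 2.44 and 2.27 in clone 18, 1.83 and 2.24 in clone 41, -0.25 and 0.95 in IgM cells, and 1.33 and 3.33 in untransfected cells. Untransfected replicate 2 was the highest of all 8 arrays and the IgM arrays were the lowest. The difference of 0.86 ± 0.47 did not pass the test (limma adjusted p = 0.247). It was called without untransfected replicate 2 (1.36, adjusted p = 0.0337) and under median scaling (1.04). Cdkn1c, the gene of p57, was not well above background on any array.

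Of the D cyclins, the partners of CDK4 and CDK6, Ccnd3 alone was well above background. It read 6.37 and 6.41 in clone 18, 6.43 and 6.49 in clone 41, 6.37 and 6.66 in IgM cells, and 6.68 and 5.67 in untransfected cells. The IgE arrays lay inside the range of the control arrays, and 1 array of the 8 was saturated. The difference was 0.08 ± 0.23 with a 95% interval of -0.46 to 0.63 (limma adjusted p = 0.831), and its sign turned under quantile normalization (-0.12).

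Ccnd1 and Ccnd2 were not well above background on any of the 8 arrays. The Ccnd1 probe gave 3.72 to 10.69 intensity units on the IgE arrays and 4 to 12.83 units on the control arrays. The Ccnd2 probe gave 4.16 to 4.96 units on the IgE arrays and 5.02 to 13.7 units on the control arrays. Levels this low have no order, and no fold is given.

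Of the 5 cyclin genes tested, which also include Ccna2, Ccnb1 and Ccne1, 0 were called, and the unadjusted p was under 0.05 for 1 (limma). Among all genes 9.00% were called, and 6944 of 19975 had such a p. With 5 genes, 0 calls cannot be told apart from that share. The differences of the cyclin genes ran from -0.40 to 0.27. The 0.27 was Ccnb1 by its brightest probe. Its other probes, well above background on all arrays, had means of 1.76 and 1.345 in the IgE lines. In the control lines these were 1.85 and 1.416, so the probes of Ccnb1 disagreed in sign. Ccnb2, a mitotic partner of CDK1, differed by -0.40 ± 0.13 (adjusted p = 0.0735), and Ccne1, the CDK2 partner at the start of replication, by -0.31 ± 0.26 (adjusted p = 0.444). Ccne2 was not well above background on any array. The 3 kinase genes differed by -0.05 to 0.15, with Cdk2, the partner of Speedy A, at 0.15 ± 0.17 (adjusted p = 0.575) and Cdk6 at -0.05 ± 0.25 (adjusted p = 0.915). The sign of the Cdk6 difference turned under median scaling (0.14) and normexp correction (0.06).

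The E2F genes E2f1, E2f2, E2f3, E2f7 and E2f8 differed by -0.26 to 0.31 and 0 of 5 were called (limma, with 1 at an unadjusted p under 0.05). The shares over all genes were 9.00% called and 6944 of 19975 at such a p. E2f2, an activator E2F, differed by 0.31 ± 0.11 (adjusted p = 0.102), and E2f8, a repressor E2F, by -0.26 ± 0.18 (adjusted p = 0.345). Of the pocket proteins, Rbl2, which encodes p130, the pocket protein of resting cells, read -1.12 and -1.21 in clone 18, -1.24 and -0.96 in clone 41, -0.44 and -0.63 in IgM cells, and -0.55 and -0.32 in untransfected cells. All 4 IgE arrays lay below all 4 control arrays. The difference of -0.65 ± 0.13 had a limma adjusted p of 0.0174 but was 1.57-fold, short of 2-fold, so it was not called. Under the other settings it ran from -0.657 to -0.405, with limma adjusted p up to 0.375. Rbl1, which encodes p107, differed by -0.32 ± 0.15 (adjusted p = 0.197), and Rb1 lay between it and 0. A second Rbl1 probe, well above background on all arrays, had a mean of -1.263 in the IgE lines and -1.301 in the control lines.

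The phosphatases Cdc25a, Cdc25b and Cdc25c, which activate CDKs, and Wee1, the kinase that restrains them, differed by -0.15 to 0.17 between IgE and control lines, with none called (limma). The share called over all genes was 9.00%. Cdc25a differed by 0.17 ± 0.16 (adjusted p = 0.524) and Wee1 by -0.15 ± 0.17 (adjusted p = 0.594). The Wee1 sign turned under median scaling (0.04). Skp2, the F-box protein that marks p27 for destruction, differed by 0.28 ± 0.19 (adjusted p = 0.353).

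Myc, the transcription factor gene that drives growth in many B cell tumours, read 3.53 and 3.82 in clone 18, 4.01 and 3.57 in clone 41, 3.33 and 3.13 in IgM cells, and 3.25 and 1.52 in untransfected cells. All 4 IgE arrays lay above all 4 control arrays, and untransfected replicate 2 stood far below the rest. The difference was 0.92 ± 0.37, or 1.90-fold, and did not pass the test (limma adjusted p = 0.127). It was called without untransfected replicate 1 (1.36, adjusted p = 0.00379) and under median scaling (1.11). Without untransfected replicate 2 it was 0.49 (adjusted p = 0.0875).

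The 6 MCM genes Mcm2 to Mcm7 form the replicative helicase, and 0 of 6 were called (limma, with 2 at an unadjusted p under 0.05). The shares over all genes were 9.00% called and 6944 of 19975 at such a p. Mcm7 differed by 0.42 ± 0.11 (adjusted p = 0.0443), 1.34-fold and so short of 2-fold. Under the other settings Mcm7 ran from 0.194 to 0.602, with limma adjusted p up to 0.228. The Mcm6 spot was saturated on 7 of the 8 arrays, so its difference is not read as a size. The counts above and the median below still take Mcm6 in. The range over the 6 genes was -0.29 (Mcm3) to 0.42 (Mcm7), with a median of 0.21 over the role against 0.05 over all genes.

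**Figure D3:**
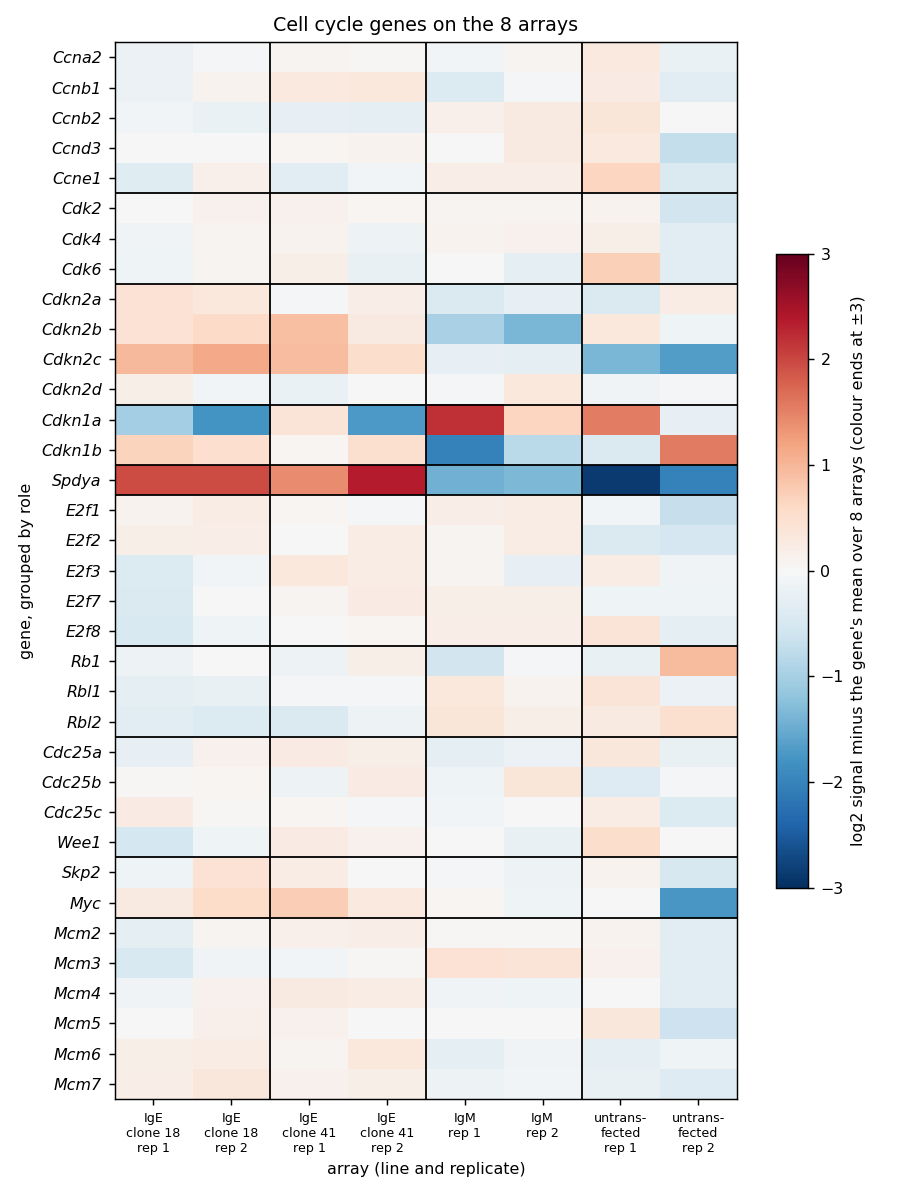
The 35 genes tested on the 8 arrays, grouped by role. Colour is the log2 level on an array minus the gene's mean over the 8 arrays, in log2 units, and the scale ends at -3 and 3. Spdya and Cdkn2c are red on the 4 IgE arrays and blue on the 4 control arrays, Cdkn1a is low on 3 of the 4 IgE arrays and highest on IgM replicate 1, and the cyclin, E2F and MCM blocks are paler than these.

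The line-by-line comparisons share arrays, so their counts are given side by side and not as independent evidence. Clone 18 against untransfected cells called 2 of the 35 genes higher and 0 lower (Spdya and Cdkn2c), where 7.68% of all genes were called, 3.23% higher and 4.45% lower. Clone 41 against untransfected cells called the same 2 genes, where 5.58% of all genes were called, 2.35% higher and 3.23% lower. Clone 18 against IgM cells called 3 higher (Spdya, Cdkn2c and Cdkn2b), where 9.10% of all genes were called, 3.49% higher and 5.60% lower. Clone 41 against IgM cells called 2 higher (Spdya and Cdkn2b), where 7.36% of all genes were called, 2.78% higher and 4.58% lower. The unadjusted p was under 0.05 for 8, 7, 9 and 6 of the 35 genes in these 4 comparisons, in the order given, against 5441, 4570, 5370 and 4774 of all 19975 genes. None of the 35 was called lower in any of them (limma).

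IgM cells against untransfected cells called 1 of the 35 genes, where 2.02% of all genes were called and 1.16% were higher. That gene was Cdkn2c, at 1.25 ± 0.21 (2.38-fold, limma adjusted p = 0.0352). Cdkn2b differed by -1.27 ± 0.28 (adjusted p = 0.0922), Cdkn1b by -1.98 ± 0.67 (adjusted p = 0.242) and Spdya by 1.05 ± 0.38 (adjusted p = 0.271), and none of these 3 passed the test. The Cdkn2c call was lost without clone 18 replicate 1 or 2 (adjusted p = 0.089 each), IgM replicate 1 (0.177), IgM replicate 2 (0.13) or untransfected replicate 2 (0.0693). Clone 41 against clone 18 called 0 of the 35, with 1 at an unadjusted p under 0.05 (limma; 1167 of all 19975 genes), where 0.360% of all genes were called. The differences between the clones ran from -0.34 (Cdkn2c) to 0.73 (Cdkn1a), and 32 of the 35 lay within 0.5 of 0.

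The 2 untransfected arrays differed in most of the 35 genes the same way. Replicate 1 was higher than replicate 2 for 26 of the 35 genes, with a median difference of 0.47, and 7 genes were more than 1 apart, against 2536 of 19963 genes over all. In clone 18 the count was 8 of 35 (median -0.15), in clone 41 it was 17 (-0.01) and in IgM cells 15 (-0.02). Over all genes the untransfected median was -0.01, with 49.6% higher in replicate 1. The MCM genes were higher in untransfected replicate 1 in 5 of 6 cases. Among the genes of 2 other lists described below, 40 of 46 replication genes (median 0.42) and 25 of 33 mitosis genes (median 0.37) were higher there too. No test of this difference was made, since it lies between the 2 arrays of a line, and its part in the results above was not tested beyond the values without either array.

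**Figure D4:**
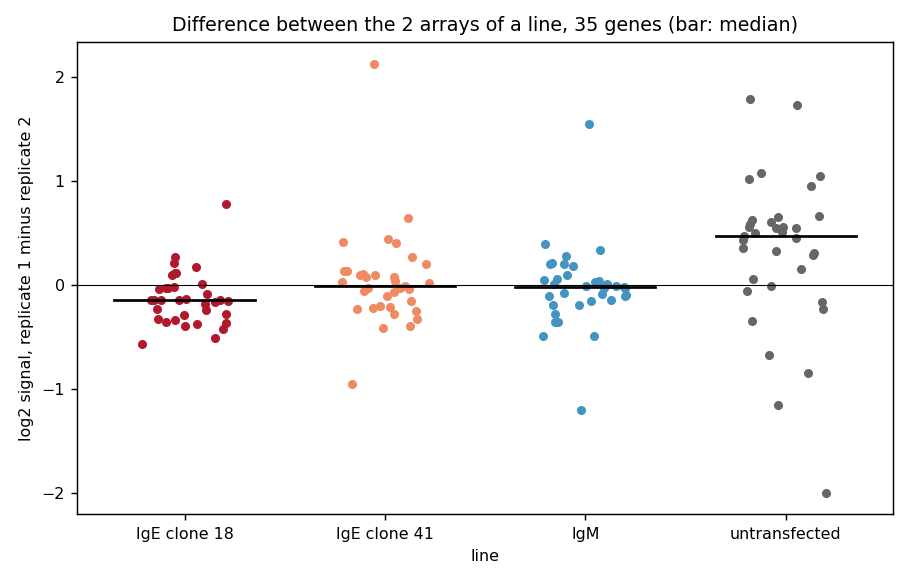
Difference between the 2 arrays of a line for the 35 genes tested. The y axis is the log2 level on replicate 1 minus that on replicate 2, each dot is 1 gene and the bar is the median. The medians are -0.15 in clone 18, -0.01 in clone 41, -0.02 in IgM cells and 0.47 in untransfected cells.

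The wider cell cycle machinery was read from 3 lists of other genes. Of 46 further replication genes, 2 were called higher and 1 lower in the IgE lines, with a median of -0.04 against 0.05 over all genes. Among all genes 9.00% were called, 3.44% higher and 5.56% lower. Orc2, a subunit of the origin recognition complex (probe at mm9 chr1:58521127-58522890), read 3.21 and 3.38 in clone 18, 3.25 and 2.98 in clone 41, 1.57 and 1.23 in IgM cells, and 2.02 and 1.09 in untransfected cells. It differed by 1.73 ± 0.23, or 3.31-fold (limma adjusted p = 0.00351), with no overlap between IgE and control arrays. Pole2, which encodes a subunit of DNA polymerase epsilon (probe at mm9 chr12:70307465-70308864), read 0.44 and 0.67 in clone 18, 0.60 and 0.66 in clone 41, 3 and 3.51 in IgM cells, and 3.41 and 2.88 in untransfected cells. All 4 IgE arrays lay below all 4 control arrays, by -2.61 ± 0.18, a 6.10-fold difference (limma adjusted p = 0.00024). Orc2 was called higher and Pole2 lower in both clones against both controls. Each of these genes was kept through a single probe, so no second probe could be set beside it.

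Mcm9, a helicase of DNA repair, read -1.11 and -1.54 in clone 18, -1.47 and -1.55 in clone 41, -3.04 and -2.85 in IgM cells, and -2.31 and -1.68 in untransfected cells. The IgE arrays lay above the control arrays with no overlap, clone 41 replicate 2 and untransfected replicate 2 being close. It differed by 1.05 ± 0.18, or 2.07-fold (limma adjusted p = 0.0106). Its second probe, well above background on 6 of the 8 arrays, did not pass the test (adjusted p = 0.269), and no size is read from it. The difference of the first probe was under 2-fold with normexp correction (0.68), in the authors' deposited table (0.75), without clone 18 replicate 1 (0.94) and without untransfected replicate 1 (0.89). Of 33 mitosis genes tested out of 34, 0 were called, with 4 at an unadjusted p under 0.05 (limma), and the median was 0.06. Such a p was reached by 6944 of all 19975 genes, and 9.00% of all genes were called, 3.44% higher and 5.56% lower. Of 35 other cell cycle regulators tested out of 41, 0 were higher and 1 was lower, with a median of 0.10. That gene was Foxo1, a transcription factor of the B cell lineage that also raises Cdkn1b. It read 3.82 and 3.97 in clone 18, 4.29 and 4.63 in clone 41, 5.73 and 5.48 in IgM cells, and 4.63 and 5.44 in untransfected cells. Clone 41 replicate 2 and untransfected replicate 1 overlapped. Foxo1 differed by -1.14 ± 0.21, or 2.20-fold (adjusted p = 0.0123), and a second probe by -1.06 (adjusted p = 0.0237). The Foxo1 call was lost without clone 18 replicate 1 (adjusted p = 0.057) or clone 41 replicate 1 (0.0502), and the difference was under 2-fold without untransfected replicate 2 (-0.93) and under median scaling (-0.95).

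**Figure D5:**
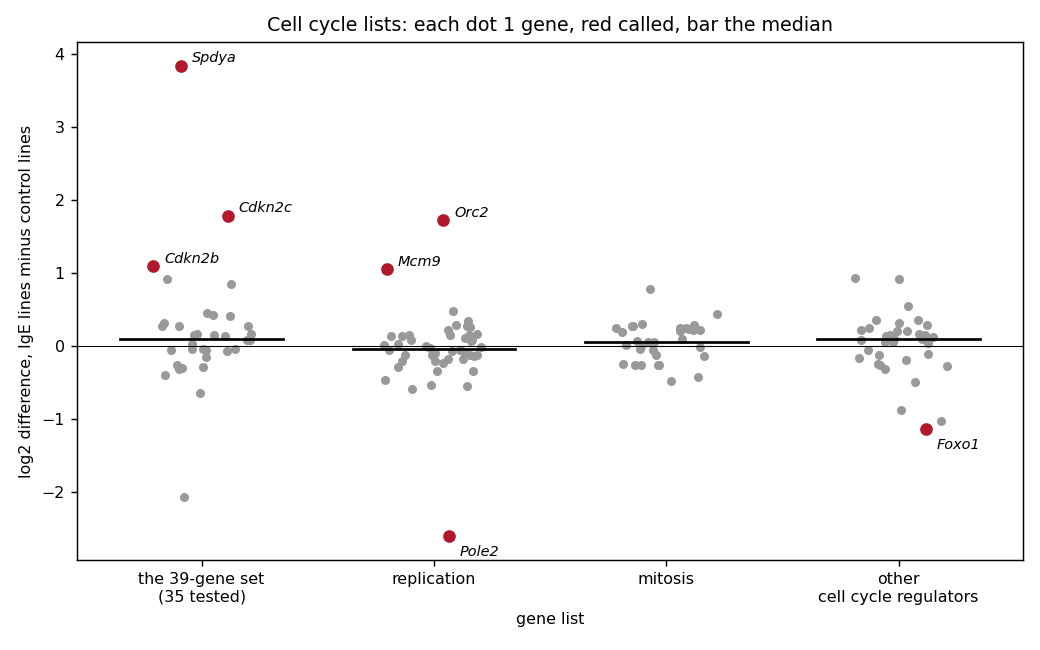
Difference between IgE and control lines in the 39-gene set and in 3 other cell cycle lists. The y axis is the log2 difference (IgE lines minus control lines), each dot is 1 gene, bars mark the list medians (0.09, -0.04, 0.06 and 0.10 from left to right) and red dots are called genes. Spdya (3.84) and Pole2 (-2.61) lie farthest from 0.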

How the data were processed

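Per the file headers, each RNA sample was hybridised in Cy3 to an Agilent array of design 028005 (the labels' protocol names another chip number), probes were placed on mm9, and Feature Extraction 10.7.3.1 made a processed intensity per spot, background-subtracted and not normalized between arrays. The authors also deposited a log2 value table, whose normalization is not given in the sources used here.

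Control spots (3671) and outlier spots were left out and repeated spots averaged. The 75th percentile of log2 processed intensity was subtracted per array, which left 23 missing values among the genes tested. The fit was limma 3.58.1 in R 4.3.3 with 1 mean per line on all 8 arrays (4 residual and 2.66 prior degrees of freedom), two-sided, over 7 contrasts of lines, and was tested on simulated data. The number of arrays limits precision. No 2 arrays held identical values. Groups came from the titles and characteristics.

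The genes, lists and tests were chosen with earlier results of these data known. Values on every array are given for called genes, Spdya, Cdkn2c, Myc and the D cyclins, and for some others where arrays disagree or separate; each other role has its range and at most 2 examples by size of difference. Other lists give up to 4 called genes each. Alternatives covered normalization, scaling, background, filters, probes, outliers, priors, threshold, blocks, the deposited table and each array left out.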

Additional observations from a re-analysis of the deposited data

Results flagged for a closer look

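Cdkn2c differed between the 2 control lines: IgM cells exceeded untransfected cells by 1.251 on the log2 scale (limma adjusted p = 0.0352), higher on 2 of 2 arrays. It is listed because the controls differ in a gene that was also higher in the IgE lines. The call was also lost with no filter on dim probes (adjusted p = 0.105), in the authors' deposited table (0.101) and under median scaling (0.398). Lines of 2 arrays were not searched for outlying arrays.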

How the results depend on the processing

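Across 20 alternatives, Spdya and Cdkn2c kept their call between IgE and control lines in the 19 that gave single values, with differences of 3.04 to 4.08 and 1.61 to 1.97, and Spdya kept it in all 4 comparisons of a clone with a control. Called genes numbered 3 between IgE and control lines, but 2 to 6 under the other settings, with 6 under median scaling and 5 on adjusted p alone. Clone 18 against IgM cells had 3, but 5 under median scaling and 1 to 4 with an array left out. Clone 41 against IgM cells had 2, but 5 under median scaling and 1 to 3 with an array left out. IgM against untransfected cells had 1, but 2 under median scaling and with every probe as its own feature, 0 with no filter on dim probes and in the authors' deposited table, and 0 to 3 with an array left out. Median scaling moved the median of all genes to 0.23, against 0.05, and the share of calls that were higher to 51.9%, against 38.2%. Its prior degrees of freedom were infinite, so its p-values are far smaller. Calls over all genes between IgE and control lines were 1798, but 1029 under normexp, 1087 under the stricter filter, 1117 in the deposited table and 3598 on adjusted p alone. With adjusted p alone set aside, the other normalizations, filters, priors and blocks gave 850 to 2163 calls for clone 18 and 590 to 1590 for clone 41 against untransfected cells (1534 and 1114 as reported), 1117 to 2562 and 899 to 2171 against IgM cells (1817 and 1470), 161 to 1015 for IgM against untransfected cells (404) and 15 to 317 for clone 41 against clone 18 (72). With an array left out they were 1388 to 2164 between IgE and control lines, 591 to 2532 for clone 18 and 468 to 2122 for clone 41 against untransfected cells, 799 to 2218 and 715 to 1892 against IgM cells, 248 to 882 for IgM against untransfected cells and 30 to 106 for clone 41 against clone 18. The highest of each came without untransfected replicate 1, and the lowest without a clone 18 or clone 41 array.

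Signs turned for 7 results. Ccnd3 was -0.115 under quantile normalization, -0.067 under normexp and -0.261 in the deposited table, and ran from -0.172 to 0.337 with an array left out. Cdk2 ran from -0.017 to 0.31 with an array left out. Cdk6 was 0.136 under median scaling, 0.058 under normexp and 0.006 in the deposited table, and ran from -0.309 to 0.214 with an array left out. Mcm6 was -0.024 in the deposited table and Wee1 was 0.036 under median scaling. Between clone 41 and clone 18, Spdya was 0.012 under median scaling and ran from -0.542 to 0.413 with an array left out, and Cdkn2b ran from -0.243 to 0.399. The cause was not tested in any of these. Of 780 single values under alternatives, chosen in part after seeing the data for the 4 genes that are not among the 39, 719 kept sign and side of the threshold, 30 lost a call and 14 gained one. Replicate numbers were not taken as pairs, since the correlations of replicate differences between lines ran from -0.02 to 0.32. With the replicate number as a block, 4 genes were called between IgE and control lines, Cdkn1a in addition, and 1841 over all genes.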
